A study of Rattus norvegicus with 24 samples.

Results

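The interferon-stimulated genes described here are 9 genes of rat blood: Isg15, Usp18, Irf7, Oas1a, Mx1, Mx2, Ifit2, Ifit3 and Rsad2. They were chosen by name, as every probe of the array that carries 1 of these symbols, and 10 probes were found among the 30367 probes of the array, which stand for 25885 gene names. Usp18 had 2 probes and each other gene had 1. The probes of 8 genes passed the filter on dim probes described below. Neither probe of Usp18 passed it, so its values are given without a test.

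RNA was taken from the blood of male Sprague-Dawley rats, 8 weeks old at the start, after 6 weeks on a semi-synthetic diet. The diet held no beta-glucan (G0), oat beta-glucan of high molecular weight (G1) or oat beta-glucan of low molecular weight (G2). Rats of the LPS groups received lipopolysaccharide, the outer membrane component of gram-negative bacteria, by the tail vein at 10 mg/kg, and rats of the C groups received saline. This gave the 6 groups C-G0, C-G1, C-G2, LPS-G0, LPS-G1 and LPS-G2, with 4 arrays each, 24 in all. By the study's methods the injections were repeated after a week. The time from the last injection to the blood sample is not given here. The labels call the arrays biological replicates. Each array held the RNA of a rat in the Cy3 channel and a common reference pool of rat blood RNA in the Cy5 channel, and every level below is the log2 ratio of Cy3 over Cy5. A level of 0 is therefore the level of the pool, and levels of different genes cannot be compared. The sign of each level and difference depends on the channel that held the rat RNA. The labels name Cy3, and the methods of the study name Cy5, which would turn every sign around. The spread between arrays of a group was the larger one in Cy3 for 96.73% of 7074 probes bright in both channels, and for the 7 interferon-stimulated genes among them, and Cy3 was used. A lower level in blood can come from fewer cells that carry a transcript or from less of it in each cell, and the arrays cannot tell these apart.

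Interferon-stimulated genes are switched on when type I interferons bind their receptor at the cell surface. The receptor's kinases then activate transcription factors that bind the interferon-stimulated response element in the promoters of these genes. In blood the products limit the growth of viruses, and lipopolysaccharide is known to induce them through interferon beta made after Toll-like receptor 4 is engaged. The 9 genes differ in role. Isg15 encodes a ubiquitin-like protein that is joined to other proteins, and Usp18 the protease that removes it and also damps the interferon receptor. Irf7 encodes a transcription factor of the interferon genes. Oas1a encodes an oligoadenylate synthetase, which activates RNase L upon binding double-stranded RNA. Mx1 and Mx2 encode dynamin-like GTPases, Ifit2 and Ifit3 proteins with tetratricopeptide repeats, and Rsad2 the radical SAM enzyme viperin.

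The sequences that carried the main pattern of these data, the pattern from array to array that Isg15 shared with Irf7 and with Oas1a, are the 60-base probes of these genes. The probe used for Usp18 is shown with them because it stood high on the same array. Coordinates are those of the deposited files, on the rat build rn4.
Isg15, chromosome 5, 173034674 to 173034733, minus strand: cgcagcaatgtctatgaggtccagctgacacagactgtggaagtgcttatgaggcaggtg
Irf7, chromosome 1, 201456889 to 201456948, minus strand: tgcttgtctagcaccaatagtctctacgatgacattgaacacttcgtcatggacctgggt
Oas1a, chromosome 12, 36815068 to 36815127, plus strand: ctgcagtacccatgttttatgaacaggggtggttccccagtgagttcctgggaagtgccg
Usp18, chromosome 4_random, 1588272 to 1588823, minus strand: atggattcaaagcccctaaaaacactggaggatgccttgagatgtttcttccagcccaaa
The Usp18 probe lies within a stretch of 552 bases, longer than its 60 bases. The remaining probes lay on chromosome 11 for Mx1 and Mx2, on chromosome 1 for Ifit2 and Ifit3 and on chromosome 6 for Rsad2. The annotation of rn4 was not used here, so the exons that hold the probes are not given.

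RefSeq promoter windows of the build GRCr8, 250 bases before to 50 after the start of the gene, matched 5 of the 9 genes by symbol. They were searched on both strands for GAAANNGAAA, the core of the interferon-stimulated response element, and for TTCNNNGAA, the gamma-activated site. GAAANNGAAA was present in the windows of 4 of these 5 genes, Irf7, Oas1a, Ifit3 and Rsad2, and in 3.92% of 33469 windows in all. It was not found in the window of Mx1. TTCNNNGAA was found in the window of Oas1a alone of the 5, and in 8.87% of all windows. The windows of Irf7 and Oas1a, whose levels followed that of Isg15, and of Rsad2, whose level did not, are shown with the matches in capitals. In the window of Oas1a the first run of capitals is TTCNNNGAA, and the second is a pair of overlapping GAAANNGAAA matches. In the other windows the capitals are GAAANNGAAA read on the opposite strand.
Irf7, chr1:205799974-205800273, minus strand: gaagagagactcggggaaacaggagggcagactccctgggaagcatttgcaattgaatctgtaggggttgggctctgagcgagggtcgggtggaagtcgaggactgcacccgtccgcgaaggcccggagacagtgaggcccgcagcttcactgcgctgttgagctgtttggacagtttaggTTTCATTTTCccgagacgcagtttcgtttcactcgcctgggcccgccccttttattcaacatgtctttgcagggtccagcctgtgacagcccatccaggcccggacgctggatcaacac
Oas1a, chr12:41330216-41330515, plus strand: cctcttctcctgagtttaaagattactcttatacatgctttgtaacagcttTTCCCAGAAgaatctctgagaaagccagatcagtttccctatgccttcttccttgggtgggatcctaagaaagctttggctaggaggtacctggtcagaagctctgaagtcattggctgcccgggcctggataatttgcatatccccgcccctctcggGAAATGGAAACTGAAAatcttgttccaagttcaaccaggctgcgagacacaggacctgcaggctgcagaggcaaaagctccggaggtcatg
Rsad2, chr6:48788071-48788370, minus strand: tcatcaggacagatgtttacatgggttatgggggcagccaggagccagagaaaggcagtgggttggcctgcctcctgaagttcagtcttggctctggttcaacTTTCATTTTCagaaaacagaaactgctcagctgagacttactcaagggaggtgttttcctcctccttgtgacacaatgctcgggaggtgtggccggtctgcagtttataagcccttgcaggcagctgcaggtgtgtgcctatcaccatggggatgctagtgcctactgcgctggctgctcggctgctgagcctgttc
The matches of Irf7 and Rsad2 start 69 and 147 bases before the start of the gene, and the overlapping pair of Oas1a 41 and 35 bases before it. These matches are letters in a window and not sites of binding.

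The depth and quality of the arrays set the precision of what follows. Between 7786 and 15385 probes were well above background in Cy3 on an array, and the number of arrays limits the precision of every value. On C-G1 replicate 2 and C-G0 replicate 1 the values stood apart from the rest on many of 10676 tested probes without a missing value. C-G1 replicate 2 was the highest of the 24 arrays on 20.4% of the probes and the lowest on 25.9%, and C-G0 replicate 1 on 13.2% and 23.6%. C-G2 replicate 1 was the highest on 4.2% and the lowest on 4.66%, and did not stand apart in this way. It was singled out because it held the highest values of Isg15, Irf7 and Oas1a. LPS-G0 replicate 4, the highest on 8.28% and the lowest on 5.83%, was kept. Some results are also given without C-G1 replicate 2, C-G0 replicate 1 and C-G2 replicate 1, a choice made after their values were seen. Such results are not independent of the levels of these genes. LPS-G0 replicates 3 and 4 are LPS rats by their titles and control rats by another label, and were used as LPS rats. As a check of the labelled tissue, all 7 erythroid and all 6 platelet markers were well above background on all 24 arrays. Of 7 T cell markers, 6 were so on at least 22 arrays and Cd28 on none.

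In Isg15 the spread between rats of a group was as wide as the differences between groups. In C-G0 its levels were -2.09, 0.16, -1.29 and 0.25, in replicate order. In C-G1 they were 0.48, -1.16, -0.25 and 0.79. In C-G2 they were 2.66, -0.75, -0.31 and 0.06. The lowest and the highest level of the whole series were thus found among rats without LPS. The levels in LPS-G0 were 0.87, 0.69, -0.54 and 0.05. Those in LPS-G1 were -0.43, -1.53, -0.69 and -0.48, and those in LPS-G2 -1.16, -0.46, -0.69 and -0.44. All 8 rats that received LPS on a beta-glucan diet lay below the pool. From highest to lowest, the group means were 0.42 ± 1.53 (SD, n = 4) in C-G2, 0.27 ± 0.65 in LPS-G0, -0.03 ± 0.87 in C-G1, -0.69 ± 0.33 in LPS-G2, -0.74 ± 1.14 in C-G0 and -0.78 ± 0.51 in LPS-G1, and the ranges of all neighbours in this order overlapped.

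Irf7 followed the same arrays. Its levels were -0.84, 0.12, -0.60 and 0.28 in C-G0, 0.27, -1.68, -0.01 and 0.24 in C-G1, and 2.06, -0.92, -0.21 and -0.45 in C-G2. They were 0.70, 0.76, -0.02 and 0.31 in LPS-G0, 0.10, -1.18, -1.07 and -0.65 in LPS-G1, and -0.71, -0.19, -0.60 and -0.32 in LPS-G2. LPS-G0 had the highest mean, 0.44 ± 0.37 (SD, n = 4), and its 4 arrays lay above all 4 of LPS-G2. The mean was 0.12 ± 1.33 in C-G2, -0.26 ± 0.55 in C-G0, -0.29 ± 0.93 in C-G1, -0.46 ± 0.24 in LPS-G2 and -0.70 ± 0.58 in LPS-G1, with overlapping neighbours throughout.

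Oas1a was highest on C-G2 replicate 1 as well. Its levels were -1.29, -0.67, -0.86 and 0.00 in C-G0, -0.20, -1.07, 0.19 and 0.41 in C-G1, and 2.80, -0.62, -0.82 and -0.05 in C-G2. They were 0.36, 0.13, -0.67 and -0.97 in LPS-G0, -1.76, -1.13, -1.58 and 0.06 in LPS-G1, and 0.16, -0.03, 0.43 and -0.67 in LPS-G2. LPS-G1 held the 2 lowest levels of the series. Its mean was the lowest too, -1.10 ± 0.82 (SD, n = 4), and the others were -0.70 ± 0.54 in C-G0, -0.29 ± 0.64 in LPS-G0, -0.17 ± 0.65 in C-G1, -0.03 ± 0.47 in LPS-G2 and 0.33 ± 1.68 in C-G2. No neighbours in this order were separated. Oas1a has close paralogs in the rat, and how far they bind its probe was not tested.

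Usp18 was dim. Its brighter probe passed the well-above-background mark on 6 of 24 arrays and the other on 3, although in the reference channel they passed on 21 and 24. No array of LPS-G0 or LPS-G2 passed with the brighter probe. It passed on C-G0 replicate 4 at 0.62, on C-G1 replicates 1 and 4 at 0.72 and 0.08, on C-G2 replicates 1 and 3 at 2.28 and 0.22, and on LPS-G1 replicate 4 at -0.53. C-G2 replicate 1 again had the highest of these levels. On that array the other probe read 1.35 but was not well above background. The other probe was highest on C-G1 replicate 1, at 1.66 and well above background. Its group means also differed from those of the brighter probe, with 0.59 against 0.01 in C-G1 and -1.13 against 0.55 in LPS-G0.

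Ifit3 and Ifit2 had lower means in LPS-G1 than in C-G1. Ifit3 had levels of 0.51, -0.17, 0.64 and 1.05 in C-G1 and of 0.09, -0.68, -0.82 and -0.43 in LPS-G1. Its levels were -0.81, 0.34, -0.06 and 0.48 in C-G0, 0.55, 0.29, -0.43 and 0.78 in C-G2, -0.25, 0.18, -0.45 and -0.04 in LPS-G0, and -0.07, 0.11, 0.07 and 0.07 in LPS-G2. The means were ordered C-G1 at 0.51 ± 0.51 (SD, n = 4), C-G2 at 0.30 ± 0.53, LPS-G2 at 0.05 ± 0.08, C-G0 at -0.01 ± 0.58, LPS-G0 at -0.14 ± 0.27 and LPS-G1 at -0.46 ± 0.40, again with overlapping neighbours.

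Ifit2 stood out for its narrow range in C-G1, the group in which all 4 arrays were well above background. Its levels there were 0.82, 0.85, 0.91 and 0.79, a mean of 0.84 ± 0.05 (SD, n = 4). It was well above background on 17 arrays of 24, and passed the filter through C-G1 only, so its differences from C-G1 are those the filter favoured, and they are given below as values without a test. Its levels were -1.02, 1.40, 0.12 and -0.29 in C-G0, 0.41, 0.43, -0.62 and 0.08 in C-G2, and -0.07, 0.57, -0.10 and -1.16 in LPS-G0. They were 0.30, -0.76, -0.18 and -0.10 in LPS-G1 and -1.13, 0.19, 0.19 and -0.10 in LPS-G2. Below C-G1 the means of the 5 groups lay between 0.07 ± 0.49 in C-G2 and -0.21 ± 0.63 in LPS-G2, closer together than their spread.

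Mx1 was above the pool on all 4 arrays of C-G1, at 0.40, 0.64, 0.35 and 0.23, and below it on all 4 arrays of LPS-G0, at -0.31, -0.58, -0.18 and -0.58. In C-G0 it was at -1.33, 0.32, -0.09 and 0.46, and in C-G2 at -0.13, -0.18, -0.14 and 0.24. LPS-G1 had -0.18, 0.16, -0.21 and -0.02, and LPS-G2 -0.56, -0.31, -0.43 and 0.20. The means were 0.40 ± 0.17 (SD, n = 4) in C-G1, -0.05 ± 0.20 in C-G2, -0.06 ± 0.17 in LPS-G1, -0.16 ± 0.81 in C-G0, -0.28 ± 0.33 in LPS-G2 and -0.41 ± 0.20 in LPS-G0, and no neighbours in this order were separated, since 0.24 in C-G2 exceeded 0.23 in C-G1. Mx2 varied least of the 8 tested genes. Its group means lay between 0.18 ± 0.16 in C-G1 and -0.17 ± 0.24 in LPS-G0, and its single levels between -0.42 and 0.39.

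Rsad2 had an order of its own. Its levels in C-G1 were -0.70, -1.47, -0.49 and -0.89, all below the 4 of C-G0, which were 1.16, -0.48, -0.09 and 0.43. They were -0.59, -0.21, 0.08 and 0.08 in C-G2, -0.28, -0.43, 0.23 and -0.47 in LPS-G0, -0.30, -1.57, -0.38 and -0.33 in LPS-G1, and -0.02, -0.07, 0.11 and -0.12 in LPS-G2. Both G1 groups had the lowest means, -0.89 ± 0.42 (SD, n = 4) in C-G1 and -0.65 ± 0.62 in LPS-G1. The others were -0.23 ± 0.32 in LPS-G0, -0.16 ± 0.32 in C-G2, -0.02 ± 0.10 in LPS-G2 and 0.26 ± 0.71 in C-G0. No neighbours were separated.

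**Figure D1:**
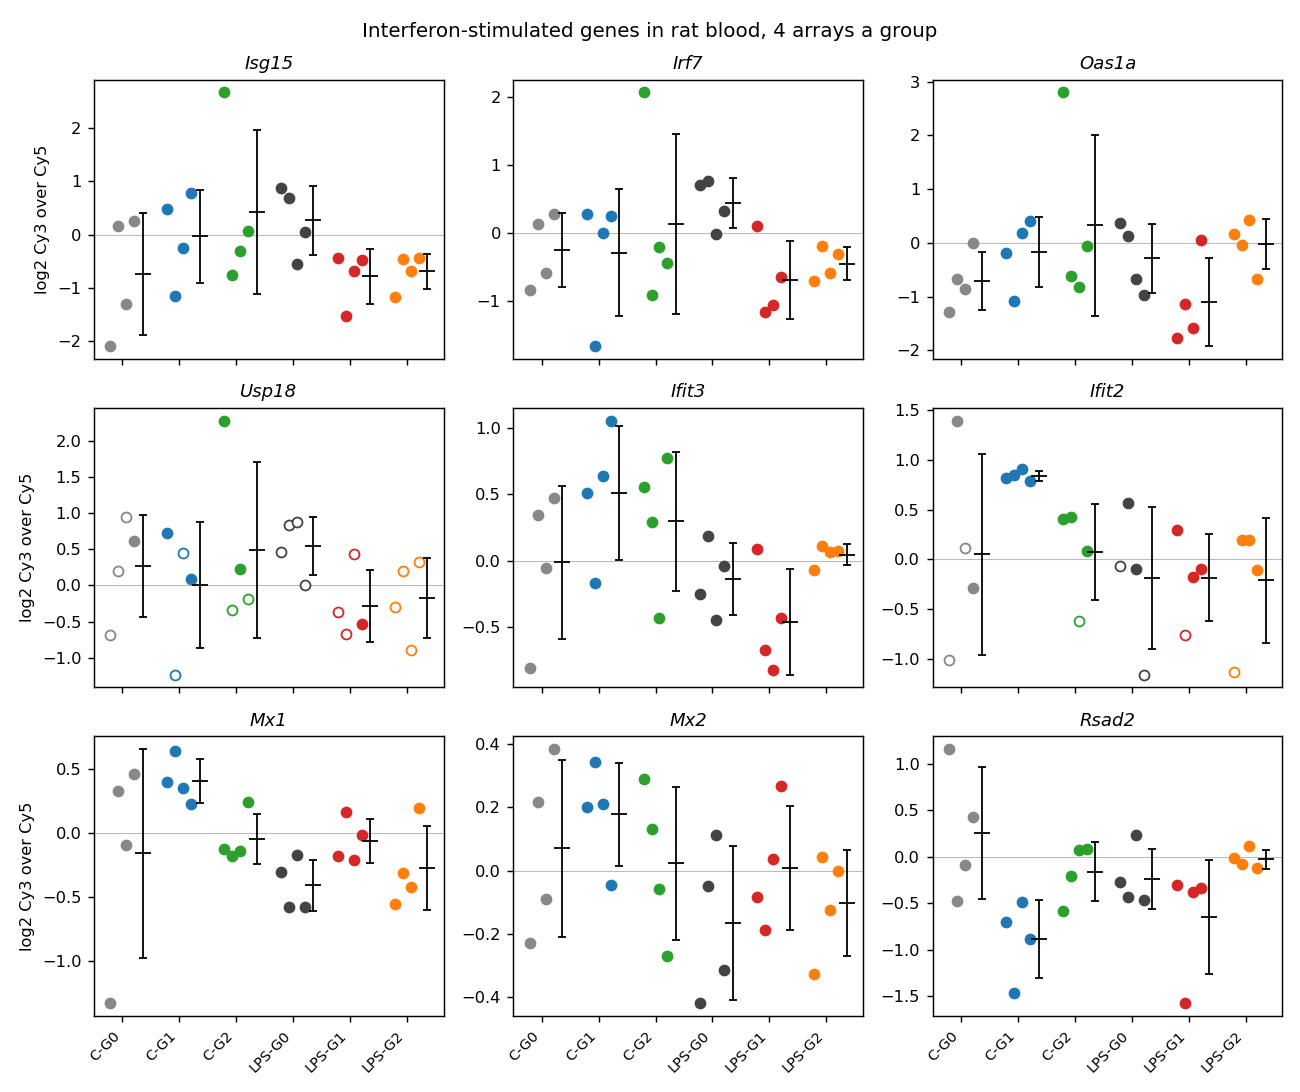
Levels of the 9 interferon-stimulated genes, as log2 Cy3 over Cy5 on the vertical axis, in the 6 groups of 4 arrays, with points in replicate order from left to right. Filled points were well above background in Cy3 and open points were not, and the black bars give the mean and SD over the 4 arrays. C-G2 replicate 1 has the highest level of Isg15, Irf7, Oas1a and Usp18, at 2.66, 2.06, 2.80 and 2.28, while its levels of Mx1, Mx2 and Rsad2 lie between -0.59 and 0.29.

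The effect of LPS was tested first over the 3 diets, with limma and Benjamini-Hochberg adjustment over 10708 probes. A probe was called when its adjusted p was under 0.05 and its change at least 2-fold. None of the 8 genes was called, as against 0.0187% of all probes. Leaving out Ifit2, which the filter favours here, 1 of the other 7 genes was found at an unadjusted p under 0.05, Ifit3, lower with LPS, beside 9.61% of all probes in either direction and 2.14% in this one. The mean difference was negative in all 7, with a median of -0.28, beside 0.01 for all probes, and 53% of all probes were higher. Since some of these genes move together, the signs are not independent. Ifit3 differed by -0.45 ± 0.17 (standard error) and Mx1 by -0.31 ± 0.15, with limma's adjusted p of 0.516 and 0.519. Ifit2 differed by -0.52, and by -0.26 with another background correction and loess normalization.

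On the diet without beta-glucan, none of the 8 genes was called between LPS-G0 and C-G0, and none of all probes was either, 0%. No gene of the set passed an unadjusted p under 0.05 in limma's test, and 11.3% of all probes did. Isg15 had the largest difference, 1.01 higher with LPS (95% interval -0.22 to 2.24, exact permutation p = 0.229). Irf7 was 0.70 higher (-0.31 to 1.71, exact permutation p = 0.114), and Rsad2 differed by -0.49 (-1.12 to 0.14, exact permutation p = 0.286). The intervals allow for a change of Isg15 of more than 4-fold upward, so a moderate induction was not detectable with these arrays. On slides 1, 2 and 3 the difference of Isg15 was 1.75, 0.75 and -0.20. LPS-G0 replicates 3 and 4, whose labels conflict, had Isg15 at -0.54 and 0.05, below replicates 1 and 2 at 0.87 and 0.69. Irf7, Oas1a and Ifit2 were also lower on replicates 3 and 4 than on replicates 1 and 2. In Mx1, Mx2, Ifit3 and Rsad2 the levels of these arrays overlapped. Without C-G0 replicate 1 the differences of Isg15, Irf7 and Rsad2 were smaller in size, at 0.56, 0.50 and -0.19. Mx1 differed by -0.25 on all arrays and by -0.64 without C-G0 replicate 1 (limma's adjusted p = 0.716 and 0.0939). With C-G1 replicate 2 and C-G2 replicate 1 left out too, its adjusted p was 0.0339 at the same difference, which is under 2-fold, and Mx1 was the 1 gene of 8 at an unadjusted p under 0.05, beside 12.6% of all probes in this direction.

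On the G1 diet, 6 of the 7 genes other than Ifit2 had a lower mean in LPS-G1 than in C-G1, while 54.3% of all probes had a higher one. None was called, and 0.00934% of all probes were. At an unadjusted p under 0.05, 1 of these 7 genes was lower, Ifit3, beside 0.822% of all probes in this direction and 2.81% in either. Ifit3 differed by -0.97 (95% interval -1.57 to -0.38, a fold of 1.96, unadjusted p = 0.00261, limma's adjusted p = 0.95), and the exact permutation test over the 8 arrays gave p = 0.0571. Its difference was -0.43, -0.99 and -1.49 on slides 1, 2 and 3, and -0.97 with the slide as a block. Mx1 differed by -0.47 (-1.01 to 0.08), and its groups did not overlap. For Mx1 the exact permutation test gave p = 0.0286, below which it cannot go with groups of 4. The groups of 1.4% of all probes lay apart in this direction. Ifit2 differed by -1.03, and by -0.48 with another background correction and loess normalization. Without C-G0 replicate 1, C-G1 replicate 2 and C-G2 replicate 1, of which C-G1 replicate 2 enters this comparison, 5 of the 7 genes were lower at an unadjusted p under 0.05, beside 1.41% of all probes in this direction. Isg15 then differed by -1.12, Irf7 by -0.87, Oas1a by -1.24, Mx1 by -0.39 and Ifit3 by -1.20. Limma's adjusted p was 0.533 for Ifit3 and 0.998 for the others, and none was called. C-G1 replicate 2 was the lowest array of C-G1 in Isg15, Irf7, Oas1a and Ifit3. Leaving it out raises their C-G1 means and so widens these differences. The count of 5 genes follows in part from that choice and is not read as a result.

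On the G2 diet, 7 of the 8 genes were again lower in LPS-G2 than in C-G2 by their means, while 52.8% of all probes were higher, but none was called, as against 0% of all probes. None passed an unadjusted p under 0.05 either, and 1.09% of all probes did. Isg15 differed by -1.11 (95% interval -2.34 to 0.13, exact permutation p = 0.143). This rested on C-G2 replicate 1, and without that array the difference was -0.36. The sign turned without it in 3 genes, with Irf7 at 0.07 in place of -0.58, Oas1a at 0.47 in place of -0.35 and Rsad2 at -0.01 in place of 0.13. On slides 1, 2 and 3 the difference of Isg15 was -3.82, 0.29 and -0.44.

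**Figure D2:**
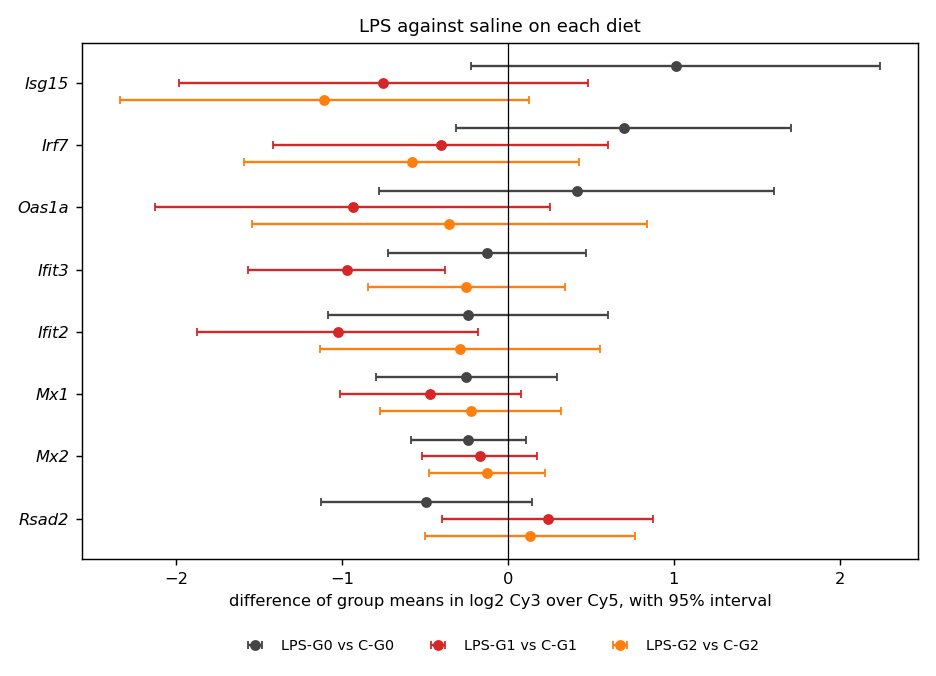
Difference between LPS and saline on each diet for the 8 tested genes, on the horizontal axis as log2 Cy3 over Cy5, with the 95% interval of limma's fit. The interval of Ifit3 on the G1 diet (-1.57 to -0.38) lies below 0. That of Ifit2 on the G1 diet is drawn but is not read as a test, since Ifit2 passed the filter through C-G1 alone. The other intervals include 0.

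Whether the LPS difference itself differed between diets was tested as an interaction. None of the 8 genes was called for G1 or for G2, as was 0% of all probes in each. At an unadjusted p under 0.05 there were 2 genes for G1, both negative, with 3.01% of all probes in either direction and 1.12% negative. For G2 there was 1 gene, also negative, with 5.57% of all probes in either direction and 2.39% negative. The LPS difference of Isg15 on G1 minus that on G0 was -1.76 (95% interval -3.51 to -0.02), and on G2 the value was -2.12 (-3.86 to -0.37). For Ifit3 on G1 it was -0.85 (-1.69 to 0.00). Limma's adjusted p was 0.999, 0.832 and 0.999 in that order. The interaction of Isg15 on G2 was -0.92 (limma's adjusted p = 0.536) without C-G0 replicate 1, C-G1 replicate 2 and C-G2 replicate 1. For G1, 4 genes were then negative at an unadjusted p under 0.05, beside 7.93% of all probes in this direction. They were Isg15 at -1.69, Irf7 at -1.37, Oas1a at -1.46 and Ifit3 at -0.81 (limma's adjusted p from 0.209 to 0.312). This count too depends on arrays chosen after the levels of these genes were seen, and is not read as a result.

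Among the rats given LPS, the mean of Irf7 was lower on both beta-glucan diets than on the diet without beta-glucan. None of the 8 genes was called between LPS-G1 and LPS-G0, and 0.028% of all probes were. Only Irf7 of the 8 passed an unadjusted p under 0.05, as did 23.7% of all probes, 15.7% in this direction. It differed by -1.14 (95% interval -2.15 to -0.13, a fold of 2.20, unadjusted p = 0.0292, limma's adjusted p = 0.166, exact permutation p = 0.0571). The difference was -0.63, -1.10 and -0.96 on slides 1, 2 and 3. This test shares 1 estimate of the spread over all 24 arrays. Fitted on the 16 arrays of C-G0 and the LPS groups, the difference was the same and Irf7 was called (Irf7 in limma's test, adjusted p = 0.0322), with 98 probes called in place of 3. It was also called without C-G0 replicate 1, C-G1 replicate 2 and C-G2 replicate 1, none of them an LPS array (limma's adjusted p = 0.00939), with 123 probes called. C-G2 replicate 1 was chosen for its levels of these genes, Irf7 among them. Leaving these arrays out narrows the shared estimate of the spread while the difference stays the same, so this call is not read as a result. Isg15 differed by -1.05 (-2.28 to 0.18, exact permutation p = 0.0857). The same 3 arrays left out gave it a limma's adjusted p of 0.0531, with the same limit. Mx1 was 0.35 higher (-0.20 to 0.89, exact permutation p = 0.0857).

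Between LPS-G2 and LPS-G0 none of the 8 genes was called, as against 0% of all probes, and none passed an unadjusted p under 0.05, as against 5.29%. Irf7 differed by -0.89 (95% interval -1.90 to 0.12, limma's adjusted p = 0.766), and its groups did not overlap (exact permutation p = 0.0286), nor did those of 7.47% of all probes in this direction. Isg15 differed by -0.96 (-2.19 to 0.28, exact permutation p = 0.0857). Both comparisons share the LPS-G0 arrays. Without the LPS-G0 replicates of conflicting labels, Isg15 differed by -1.57 on G1 and by -1.47 on G2, and neither was called (limma's adjusted p = 0.314 and 0.923).

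Among the rats given saline, the mean of Rsad2 was lower in C-G1 than in C-G0. None of the 8 genes was called, and 0.028% of all probes were. At an unadjusted p under 0.05 there were 2 genes, Rsad2 lower and Mx1 higher, with 27.9% of all probes, 15.8% lower and 12.1% higher. Rsad2 differed by -1.14 (95% interval -1.78 to -0.51, a fold of 2.21, limma's adjusted p = 0.104). Its groups did not overlap (exact permutation p = 0.0286), nor did those of 3.97% of all probes in this direction. On slides 1, 2 and 3 the difference was -1.04, -0.89 and -1.31. It was -0.84 without C-G0 replicate 1 and -0.65 (adjusted p = 0.664) when C-G1 replicate 2 and C-G2 replicate 1 were left out too. Without C-G0 replicate 4 it was -1.09 and was called (adjusted p = 0.0479), with 312 probes called in place of 3.

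The markers of erythroid cells moved in the same direction as Rsad2. All 7 were well above background on all 24 arrays, among them Slc4a1, the anion exchanger of red cells, whose log2 ratio correlated with that of Rsad2 at r = 0.864 over the 24 arrays, the highest of 9675 genes. The mean log2 ratio of the list was -0.67 in C-G1 and 0.09 in C-G0, and its summed Cy3 signal, in units of each array's upper quartile, ran from 1928 to 3724 in C-G1 and from 2638 to 5953 in C-G0. C-G1 replicate 2 had the lowest list mean, -1.44. In deviations from the group means, Rsad2 and the list correlated at r = 0.522, with an adjusted permutation p of 0.334 over 64 relations of a gene with a list (rho = 0.388, adjusted permutation p = 0.433). The correlation was 0.241 without the 2 arrays farthest from the list's median, C-G1 replicate 2 and LPS-G1 replicate 2, and 0.591, 0.714 and -0.08 within slides 1, 2 and 3. Of the 64 relations, 1 passed by Pearson's r, that of Mx1 with the erythroid list, at r = -0.47 (adjusted permutation p = 0.0275, rho = -0.532 with an adjusted permutation p of 0.371). The part of these markers in the difference of Rsad2 was not tested.

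Mx1 was 0.57 higher in C-G1 than in C-G0 (95% interval 0.02 to 1.11, limma's adjusted p = 0.169), and this rested on C-G0 replicate 1, without which the difference was 0.18. Between C-G2 and C-G0 none of the 8 genes was called, as against 0.028% of all probes, and none passed an unadjusted p under 0.05, as against 13.3%. Isg15 differed by 1.16 (-0.07 to 2.39, exact permutation p = 0.343) and, without C-G2 replicate 1, by 0.41. Without C-G0 replicate 1 and C-G1 replicate 2 as well it differed by -0.04.

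**Figure D3:**
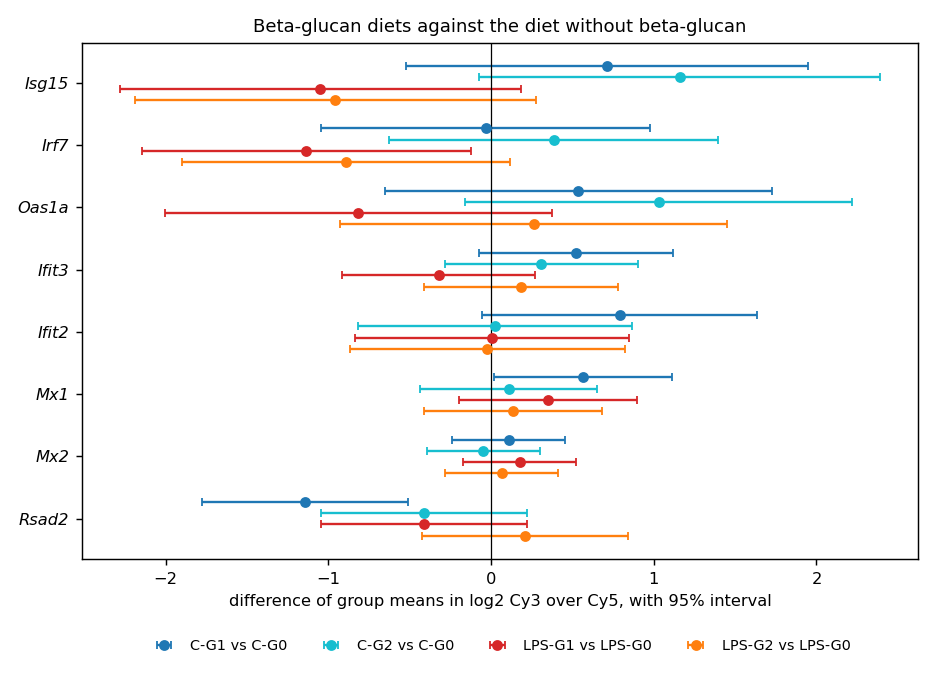
Difference between beta-glucan diets and the diet without beta-glucan, within saline and within LPS, for the 8 tested genes, on the horizontal axis as log2 Cy3 over Cy5, with the 95% interval of limma's fit. Rsad2 in C-G1 (-1.78 to -0.51) and Irf7 in LPS-G1 (-2.15 to -0.13) lie below 0 with their whole interval, and Mx1 in C-G1 (0.02 to 1.11) above it.

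High and low molecular weight beta-glucan were compared directly within each treatment. None of the 8 genes was called between LPS-G1 and LPS-G2, as against 0% of all probes, and none passed an unadjusted p under 0.05, as against 4.21%. Rsad2 differed by -0.62 (95% interval -1.26 to 0.01, limma's adjusted p = 0.808) with groups that did not overlap (exact permutation p = 0.0286), as in 3.29% of all probes in this direction. Without LPS-G1 replicate 2, at -1.57, the difference was -0.31. Oas1a differed by -1.08 (-2.27 to 0.11, exact permutation p = 0.0857). Isg15 differed by -0.09, with an interval from -1.33 to 1.14 that leaves room for a change of 2-fold in either direction.

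Between C-G1 and C-G2 none of the 8 genes was called, as against 0% of all probes. At an unadjusted p under 0.05 there was 1 gene, Rsad2, lower in C-G1, beside 15.4% of all probes and 10% in this direction. Rsad2 differed by -0.73 (95% interval -1.36 to -0.10, limma's adjusted p = 0.323). Ifit2 was 0.77 higher, and 0.33 higher with another background correction and loess normalization. Isg15 differed by -0.45 and Irf7 by -0.42, and without C-G0 replicate 1, C-G1 replicate 2 and C-G2 replicate 1 by 0.68 and 0.69, both with limma's adjusted p = 0.998. Rsad2 was thus the lower one on G1 with and without LPS, though neither difference passed the adjustment.

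Within groups, Isg15, Irf7 and Oas1a varied more from rat to rat than most transcripts. Their pooled SD within groups was 0.93, 0.76 and 0.90, and 99.4%, 98.1% and 99.2% of all tested probes had a smaller one. For Ifit2, Rsad2, Ifit3 and Mx1 the share was 95%, 81.3%, 76.7% and 68.8%, and for Mx2 17.3%. The SD within groups was thus large for the genes first named and small for Mx2. For Isg15, Irf7 and Oas1a it was largest in C-G2, at 1.53, 1.33 and 1.68, the group of C-G2 replicate 1. It was smallest in LPS-G2, at 0.33, 0.24 and 0.47. The pooled values thus rest in part on C-G2.

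Isg15 moved with Irf7 and with Oas1a. Pairs of the 8 genes were compared over the 24 arrays as deviations from the group means, 28 pairs in all, with p from 100000 permutations within groups. Isg15 and Irf7 correlated at r = 0.915 (Spearman's rho = 0.902, adjusted permutation p = 0.00028 for both, from the smallest p that the permutations can give). The correlation was 0.877 without C-G2 replicate 1 and C-G0 replicate 1, the 2 arrays farthest from the median of Isg15, and 0.931, 0.834 and 0.931 within slides 1, 2 and 3. Isg15 and Oas1a correlated at r = 0.765 (rho = 0.673, adjusted permutation p = 0.0286 and 0.0214), and at 0.615 without those 2 arrays. Within slides 1, 2 and 3 this correlation was 0.786, 0.63 and 0.74. Irf7 and Oas1a gave r = 0.725 (rho = 0.56, adjusted permutation p = 0.109 and 0.108), 0.475 without C-G2 replicate 1 and C-G1 replicate 2, and 0.732, 0.903 and 0.565 within the slides.

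Isg15 and Ifit3 gave r = 0.657 (rho = 0.697, adjusted permutation p = 0.106 and 0.0214), and Irf7 and Ifit3 r = 0.605 (rho = 0.709, adjusted permutation p = 0.114 and 0.0214). Their values without the 2 farthest arrays were 0.651 and 0.588. Within slides 1, 2 and 3 they were 0.69, 0.401 and 0.686 for Isg15 and 0.653, 0.715 and 0.442 for Irf7. No other pair passed an adjusted permutation p of 0.05 by either measure. Rsad2 correlated with Isg15 at r = -0.203 (rho = -0.137, adjusted permutation p = 0.574 and 0.773), and at 0.122 without the 2 farthest arrays.

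**Figure D4:**
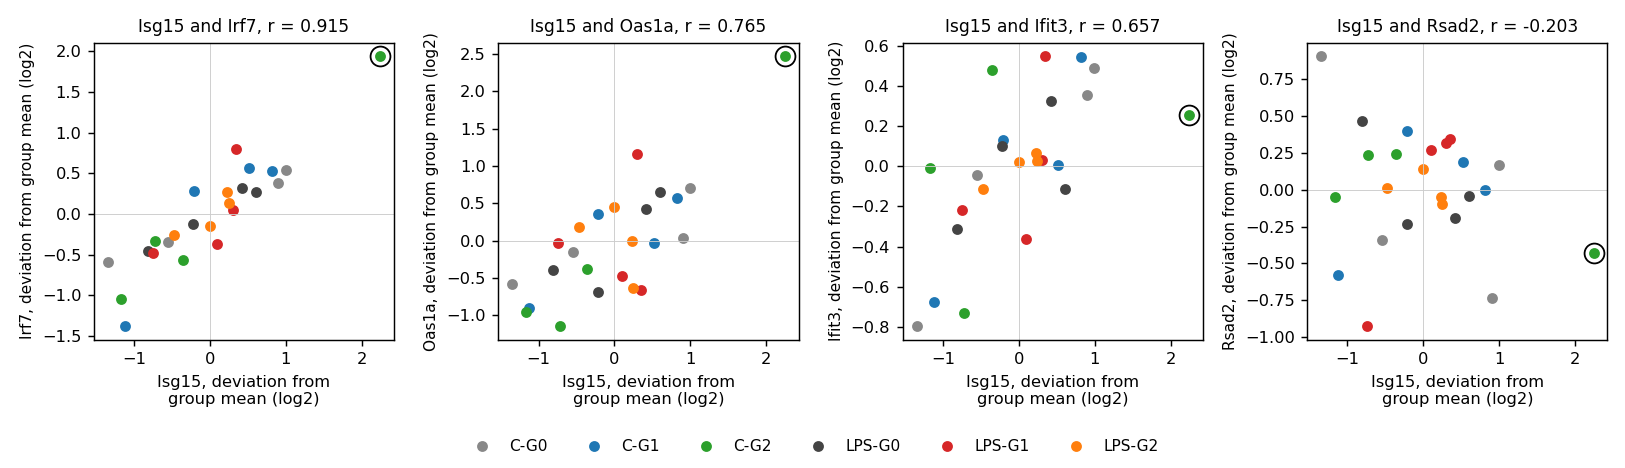
Deviation of Irf7, Oas1a, Ifit3 and Rsad2 from their group means (vertical axes, log2) against that of Isg15 (horizontal axes, log2) on the 24 arrays, coloured by group, with C-G2 replicate 1 circled. Irf7 rises with Isg15 over the whole range (r = 0.915) and Rsad2 does not (r = -0.203).

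On C-G2 replicate 1 the pattern was largest. There Oas1a, Isg15 and Irf7 lay 3.30, 3.00 and 2.59 above the mean of the other 3 arrays of the group, ranks 2, 3 and 8 from the top of 10676 probes. Ifit2, Mx2 and Ifit3 lay 0.44, 0.36 and 0.34 above it, where 19.4%, 25% and 25.9% of all probes lay higher, and Mx1 and Rsad2 at -0.10 and -0.57. These values describe 1 rat that was singled out after its levels were seen, and no test is given.

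Other genes of the interferon pathway stood high on the same array. The pathway list held 129 genes beside the 9, of which 117 were on the array and 72 were tested. A difference of at least 2-fold above the rest of C-G2 was found for 10 of the 72 genes and for 2.25% of all probes, and a difference of at least 2-fold below it for 1 gene and for 2.77% of all probes. Oas1k, a paralog of Oas1a, lay 2.82 higher, and Ifi27, a small mitochondrial protein induced by interferon alpha, 2.55. Lgals3bp, a secreted glycoprotein, lay 1.99 higher, Ifi35 1.84 and Ube2l6, the enzyme that hands ISG15 to its targets, 1.71. Irf9, an interferon-regulated transcription factor, lay 1.40 higher, and Lgals9, Mavs, Parp12 and Dhx58 between 1.00 and 1.14.

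Some cell type marker lists stood low on that array, and no list had its highest summed signal there. The summed signals of monocyte, neutrophil, NK cell, erythroid and platelet markers had ranks from 6 to 9 among the 24 arrays. Those of plasmacytoid dendritic cells, T cells and B cells had ranks 22, 23 and 24. Siglech, the marker most restricted to plasmacytoid dendritic cells, was well above background on only 5 arrays. The part of blood cell makeup in this array's levels was not tested.

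**Figure D5:**
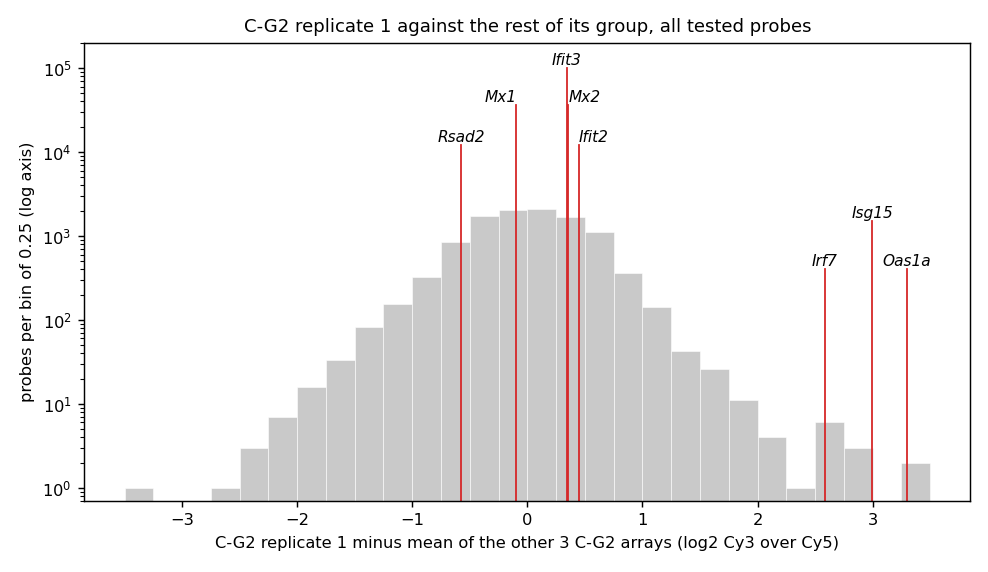
Number of probes on a log axis by the difference between C-G2 replicate 1 and the mean of the other 3 C-G2 arrays (log2 Cy3 over Cy5, bins of 0.25) over 10676 tested probes, with the 8 tested genes as red lines whose heights carry no value. Irf7, Isg15 and Oas1a lie at 2.59, 3.00 and 3.30, beyond nearly all probes, and the other 5 genes between -0.57 and 0.44.

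Of the interferons themselves, 7 were on the array and 1 was tested. Ifna4 passed the background mark on 22 arrays of 24 and Ifna2 on 12. Ifna1, Ifna5, Ifnb1, Ifnk and Ifng were not well above background on any array, so Ifna4 was the 1 interferon whose level could be tested. All 4 receptor chains, Ifnar1, Ifnar2, Ifngr1 and Ifngr2, were tested, as were the kinases Jak1 and Jak2 and the transcription factor Irf9.

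On all 24 arrays, none of the 72 pathway genes was called in any of the 12 comparisons by limma. Over the 3 diets, 2 were higher and 4 lower with LPS at an unadjusted p under 0.05, which is 2.78% and 5.56% of the 72, beside 7.47% and 2.14% of all probes. The median difference of the 72 genes was -0.08. Without C-G0 replicate 1, C-G1 replicate 2 and C-G2 replicate 1, 2 were higher and 17 lower. This is 2.78% and 23.6% of the 72, beside 13% and 8.44% of all probes. The median difference was then -0.12, and limma's smallest adjusted p was 0.0399. These counts thus depend on arrays left out after their values were seen. The values that follow are from all arrays. Trim25, a ligase that activates RIG-I, differed by -0.36 ± 0.12 (standard error), Eif2ak2, the kinase PKR, by -0.43 ± 0.15, and Slfn3, a schlafen protein, by -0.48 ± 0.16. Tap2, a subunit of the peptide transporter, differed by -0.45 ± 0.20. Gbp1, an interferon-induced GTPase, was 0.40 ± 0.18 higher, and Ccl5, a chemokine of T and NK cells, 0.37 ± 0.13 higher. Limma's adjusted p was 0.516 for all 6. Eif2ak2 was well above background on 10 arrays only, and its mean was highest in C-G1, at 0.58. Gbp1 was well above background on 22 arrays. A probe dim on some arrays passes the filter through a group in which it is bright, which can favour differences from that group. The difference of Eif2ak2 is therefore not read as a test, although the counts above include it.

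The numbers of pathway genes at an unadjusted p under 0.05 were 2 higher and 4 lower in LPS-G0 against C-G0, which is 2.78% and 5.56% of the 72, beside 6.81% and 4.5% of all probes. Without the same 3 arrays, of which C-G0 replicate 1 enters this comparison, 6 were higher and 16 lower. This is 8.33% and 22.2%, beside 16.2% and 12.6% of all probes. The median difference was then -0.23 in place of 0.00, and limma's smallest adjusted p was 0.0104. The counts that follow are from all arrays. In LPS-G1 against C-G1 they were 1 higher and 3 lower, 1.39% and 4.17%, beside 1.99% and 0.822% of all probes. There Dhx58, the cytosolic RNA sensor LGP2, differed by -0.90 ± 0.33 (standard error), Slfn3 by -0.66 ± 0.27 and Oasl2, an oligoadenylate synthetase-like protein, by -0.57 ± 0.24, and limma's adjusted p was 0.95 for each. There was no such gene in LPS-G2 against C-G2. In LPS-G1 against LPS-G0, 5 were higher and 5 lower, 6.94% each, beside 7.98% and 15.7% of all probes. By their means 51 of the 72 were higher, with a median difference of 0.20, beside 56.2% and 0.07 for all probes. The higher ones were Ifi27l2b at 0.66, Plac8 at 0.62, Samhd1, which breaks down the building blocks of DNA, at 0.55, and the transcription factors Irf5 at 0.52 and Stat2 at 0.46. The lower ones were those of Ube2l6 at -1.14, Ifna4 at -0.99, Dhx58 at -0.94, Cmpk2, the nucleotide kinase beside Rsad2, at -0.74, and the nuclear body protein Sp100 at -0.35. The adjusted p of all 10 in limma's test ran from 0.114 to 0.199. Dhx58 was well above background on 13 arrays only and Ifna4 on 22. The filter may thus favour their differences, and the counts above include them.

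In C-G1 against C-G0, 18 of the 72 genes were higher and 3 lower at an unadjusted p under 0.05, beside 12.1% and 15.8% of all probes. Antigen processing gave 5 of its 8 genes, all higher. Tap1, the other subunit of the peptide transporter, was 0.98 higher, the immunoproteasome subunits Psmb9, Psmb8 and Psmb10 were 0.56, 0.54 and 0.46 higher, and the proteasome activator Psme2 0.49. Rtp4, an antiviral chaperone, was 0.96 higher and the tethering protein Bst2 0.86. The lower ones were Cmpk2 at -0.66, the exonuclease Isg20 at -0.55 and Sp100 at -0.44. Limma's adjusted p of all 21 ran from 0.124 to 0.179. Tap1 and Rtp4 were well above background on 19 and 21 arrays, so the filter may favour their differences in this comparison. This comparison holds C-G0 replicate 1 and C-G1 replicate 2, which stood apart most. Without them and C-G2 replicate 1, 2 of the 72 genes were higher and 1 lower, beside 2.08% and 5.22% of all probes, and 1 of the 8 antigen processing genes was higher. Tap1 was then 0.80 higher, Psmb9 0.27, Psmb8 0.23, Psmb10 0.04, Psme2 0.03, Rtp4 0.37 and Bst2 0.95. The mean log2 ratio of the erythroid list was -0.67 in C-G1 and 0.09 in C-G0, and its part in these differences was not tested.

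The genes whose pattern was most like the 8 tested genes were ranked by Pearson's r with the mean of their standardised log2 ratios over the 24 arrays, among 9668 genes. RGD1563091 led with r = 0.843, followed by Parp12, an ADP-ribosyltransferase, at 0.809 and Rnf114, a ubiquitin ligase, at 0.806. The transcript TC612990 had 0.774, Oasl2 0.757, Lgals3bp 0.706, Rtp4 0.702, Apoe 0.674, Gbp2 0.668 and Slfn3 0.657. Of these 10 genes, 6 are on the pathway list. In deviations from the group means r ran from 0.549 for Apoe to 0.845 for Parp12. These are descriptions over arrays that share groups and slides.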

How the data were processed

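Blood RNA of 24 rats was measured on 2-color Agilent SurePrint G3 arrays. Per the file headers, the deposited intensities of each channel were made by the authors with Feature Extraction 10.10.1.1 (10.7.3.1 in the submitters' processing notes), with background subtraction and Lowess dye normalization. The deposited log10 values are the ratio of the processed Cy5 over Cy3 signal, and all 1511424 values of the series table are identical to them. Their sign was turned and their base changed, which gave log2 Cy3 over Cy5.

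Of 58717 spots that are not controls, 679 to 1133 outliers per array were left out, and spots of a probe were averaged, which gave 30367 probes. A probe was tested if some group had all 4 of its arrays well above background in Cy3, which held for 10708 probes. The group means of all 24 arrays were estimated without covariates in limma 3.58.1 (R 4.3.3), and 12 contrasts were tested, two-sided, with Benjamini-Hochberg adjustment. For single genes, a two-sided exact permutation test went through the 70 ways to divide 8 arrays, which cannot give a p below 0.0286. The fit was tested on simulated data. The brightest probe of a gene was used, and a share of groups that do not overlap leaves out missing values. Each of the 3 slides, known from the labels, held all 6 groups.

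Alternatives covered the background correction with offset 50, the Cy3 signal alone, the processed-signal ratio, the filter, the arrays and groups used, slide and replicate number as a block, array weights, a variance trend, the series table and the analysis of variance and Tukey test named in the methods. The pathway genes with values are those at an unadjusted p under 0.05 in a comparison or with the largest changes. The genes, lists and tests were chosen with earlier results of these data known.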

Additional observations from a re-analysis of the deposited data

Results flagged for a closer look

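In 54 groups of 4 arrays (9 genes in 6 groups), 3 held an array whose gap to its nearest neighbour took up more of the group's range than Dixon's 95% limit, and chance alone gives about 5% of groups. Irf7 on C-G1 replicate 2 lay at -1.68, with the nearest array at -0.01, a gap of 0.855 of the range. Mx1 on C-G2 replicate 4 lay at 0.24, with the nearest at -0.13, a gap of 0.861. Rsad2 on LPS-G1 replicate 2 lay at -1.57, with the nearest at -0.38, a gap of 0.938. C-G2 replicate 1, with the highest levels of Isg15, Irf7 and Oas1a, did not pass this limit in any of these 3 genes.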

How the results depend on the processing

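In the main analysis none of the 8 tested genes was called in any of the 12 comparisons, and most alternatives gave the same. In LPS-G1 against C-G1, array weights gave 1 call, Ifit3 at -1.26 (limma's adjusted p = 0.022). In LPS-G1 against LPS-G0 they gave 2 calls, Isg15 at -1.27 (0.0313) and Irf7 at -1.33 (0.0056). There the 16 arrays of C-G0 and the LPS groups gave 1 call, Irf7. Leaving out C-G0 replicate 1, C-G1 replicate 2 and C-G2 replicate 1 gave the same call. That choice was made after seeing the data, the levels of Irf7 among them. The cause of the calls under array weights was not tested. In C-G1 against C-G0, a replicate block gave 1 call, Rsad2 at -1.14 (0.0421), and leaving out 1 array at a time gave 0 to 1 calls there. Array numbers were not used as pairs, since the labels name no link. The mean correlation between arrays of different groups was 0.111 where the number was shared and -0.0378 where it was not, and 14 of 24 arrays correlated best with their own number. The block changed no other call of these genes.

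Among single differences, 61 of 3596 alternative values moved by more than the standard error and 7 became calls. Probes not well above background have only a bound, which limits Usp18 and, on 7 arrays, Ifit2.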
